A study of Mus musculus with 4 samples.

Results

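The genes of the proteasome were examined in laser-captured mouse Purkinje cells. They were taken as every gene whose symbol begins with Psma, Psmb, Psmc, Psmd, Psme, Psmf or Psmg followed by a number, among the probe sets that the platform annotation assigns to a single symbol. The rule found 49 genes, measured by 103 probe sets, of 18193 named genes and 45037 probe sets without the 64 control probe sets. Of the 49, 47 encode subunits, assembly chaperones, activators or an inhibitor of the proteasome. The other 2 match by symbol alone: Psmc3ip, named for binding Psmc3, which acts in meiotic recombination, and Psme3ip1, a nuclear protein that binds the activator Psme3. Psme2, the partner of Psme1, had no probe set of its own symbol and was not analysed here. Each gene was given 1 level, from its probe set with the highest mean.

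The study hybridised RNA from 4 samples to Affymetrix arrays, samples 2-1 and 2-2 from animal 2 and samples 1-1 and 1-2 from animal 1. Both animals were intact male C57BL/6J mice aged 8 weeks, and the labels name the cells as cerebellar Purkinje cells cut from frozen sections by laser capture microdissection. The animals carry no treatment, genotype or other label that differs, so the only contrast is animal 2 against animal 1, and it describes these samples. The labels do not say whether the 2 samples of an animal are separate captures, so p-values measure only the spread between these samples, which may be technical.

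The proteasome degrades proteins tagged with ubiquitin. Its core is a stack of alpha and beta rings with the cutting sites inside, on 3 of the beta subunits, and a regulatory cap of ATPase and non-ATPase subunits recognises, unfolds and feeds in the substrates. Interferon induces replacement beta subunits that form the immunoproteasome, which produces peptides for antigen presentation, and other activators can take the place of the cap. Neurons rely on the constitutive form, and the immunoproteasome is known mainly from immune cells and inflamed tissue.

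The promoters of 41 of the 49 genes were found in the RefSeq table of build GRCm38.p6, and the 250 bases before each annotated start were searched on both strands for 13 short motifs. The 4 stretches below are the last 150 bases before the start of the gene whose level differed between the animals by the test used here (Psma6), of the cap subunit Psmd2, which is among those with the smallest p-values, and of a constitutive active-site gene (Psmb6) beside the gene whose product replaces it in the immunoproteasome (Psmb9). They lie at chr12:55398675-55398824 on the plus strand for Psma6 (1 of 2 starts in the table), chr16:20651502-20651651 on the plus strand for Psmd2, chr11:70525207-70525356 on the plus strand for Psmb6, and chr17:34187331-34187480 on the minus strand for Psmb9. Of the 2 starts of Psma6, the start with a CCGGAA match was chosen for printing, so the presence of that motif there was a condition of the choice. Capitals mark CCGGAA, the letters recognised by ETS factors, TGACNNNGC, the antioxidant response element bound by Nfe2l1 and Nfe2l2, and CCAAT, the box bound by NF-Y, in either orientation. Each is written from 5′ to 3′ on the strand of the gene.
Psma6: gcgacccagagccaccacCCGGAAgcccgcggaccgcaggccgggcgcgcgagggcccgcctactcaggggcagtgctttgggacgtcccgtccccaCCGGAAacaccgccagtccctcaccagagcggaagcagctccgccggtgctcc
Psmd2: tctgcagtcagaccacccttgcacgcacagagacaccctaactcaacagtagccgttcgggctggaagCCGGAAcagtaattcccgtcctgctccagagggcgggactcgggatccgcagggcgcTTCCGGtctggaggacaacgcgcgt
Psmb6: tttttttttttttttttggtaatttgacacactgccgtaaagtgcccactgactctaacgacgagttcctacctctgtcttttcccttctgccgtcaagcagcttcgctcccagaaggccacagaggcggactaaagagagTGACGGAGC
Psmb9: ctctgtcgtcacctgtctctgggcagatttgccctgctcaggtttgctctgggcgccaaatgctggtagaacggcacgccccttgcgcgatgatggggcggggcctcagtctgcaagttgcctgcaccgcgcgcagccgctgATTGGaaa

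CCGGAA occurred in the 250 bases of 18 of the 41 genes (43.9%), against 13.6% of all 27025 genes in the table. It was found before 10 of 14 cap subunit genes and 2 of 11 core ring genes. This motif was singled out after the counts of the 13 motifs were seen, and matches of CCGGAA and its reverse complement may overlap each other. TGACNNNGC occurred in 5 of the 41 (12.2%), against 11.5% of all genes, and CCAAT in 16 (39%), against 37.5% of all genes. The interferon-type letters GAAANNGAA occurred in 3 (7.32%), against 8.18% of all genes, and the longer form with 1 more A at its end, which contains them, in 3 as well (7.32%), against 3.46% of all genes. GGAAGT, another ETS-type motif that can overlap CCGGAA, occurred in 14 (34.1%), against 22.2% of all genes, and CACGTG in 5 (12.2%), against 6.86%. The other 6 motifs were found in 0 to 3 of the 41 genes each. TTCNNNGAA occurred in 2 (4.88%, against 8.13% of all genes) and GAANNTTC in 3 (7.32%, against 7.73%). The antioxidant element with 1 more A at its end occurred in 1 (2.44%, against 2.8%). The nuclear respiratory factor palindrome occurred in 1 as well (2.44%, against 0.877%). TGACTCAGC and a stricter interferon-type element occurred in 0, against 0.426% and 0.659% of all genes. A match is only a match of letters in this window.

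Levels are given as log2 of the signal after quantile normalisation, and a level of 1 probe set is not set against that of another, because probe sets differ in how strongly they hybridise. A gene was called above background on an array when its level passed the 95th percentile of 80 genes specific to other organs. This bound lay at 5.90 and 5.71 in samples 2-1 and 2-2, and at 6.09 and 5.75 in samples 1-1 and 1-2. The organ-specific genes Krt1, Krt10 and Tff1 passed it on all 4 arrays. Of the 49 genes, 36 (73.5%) lay above the bound on all 4 arrays, against 27.4% of all named genes. A further 8 passed on 1 to 3 arrays and 5 on none. The number above the bound was 38 and 40 in samples 2-1 and 2-2, and 39 and 42 in samples 1-1 and 1-2.

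The captured material carried Purkinje cell RNA in every sample. Of 16 measured Purkinje markers, 15 passed the bound on all 4 arrays, and their summed signals were 83600 and 83000 in samples 2-1 and 2-2, and 76000 and 77000 in samples 1-1 and 1-2. Calb1 was at 13.68 in each sample. Quantile normalisation gives probe sets of equal rank the same value, so this equality does not measure equal amounts of Purkinje cell RNA. Markers of neighbouring cells passed too. The bound was passed on all 4 arrays by 10 of 13 Bergmann glia and astrocyte markers, 4 of 11 granule cell markers, 3 of 11 oligodendrocyte markers, 1 of 15 microglia markers (Csf1r) and 1 of 11 vessel markers. The share over all named genes was 27.4%. The granule cell and oligodendrocyte counts lay near this share, and the microglia and vessel counts below it. In such bulk samples, fewer cells of a type and less RNA per cell cannot be told apart. The arrays' median signals were 9.6 and 11.4 in samples 2-1 and 2-2, and 8.4 and 8.5 in samples 1-1 and 1-2.

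All 14 genes of the constitutive core passed the bound on all 4 arrays. The alpha ring genes Psma1 to Psma7, which form the gate of the core, had mean levels of 8.10 to 12.22. Psma1 stood at 8.84 and 9.27 in samples 2-1 and 2-2, and at 8.28 and 8.52 in samples 1-1 and 1-2. Psma3 stood at 11.34 and 11.05 in samples 2-1 and 2-2, and at 10.69 and 10.59 in samples 1-1 and 1-2. Both samples of animal 2 lay above both of animal 1 for these 2 genes. Psma4 lay the other way, at 7.35 and 7.84 in samples 2-1 and 2-2, and at 8.64 and 8.57 in samples 1-1 and 1-2. Psma6 also lay lower in animal 2, at 12.00 and 11.86 in samples 2-1 and 2-2, and at 12.54 and 12.47 in samples 1-1 and 1-2. The groups of samples did not overlap for 6 of the 7 alpha ring genes, 4 with animal 2 above and 2 with animal 2 below, and Psma7 overlapped. Such separation was common, since 23% of all genes above the bound on all 4 arrays had animal 2 above and 27.4% had it below.

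The beta ring genes without a cutting site, Psmb1 to Psmb4, had mean levels of 6.68 to 11.20. Psmb1 stood at 9.04 and 9.16 in samples 2-1 and 2-2, and at 8.32 and 8.69 in samples 1-1 and 1-2. Psmb2 stood at 6.75 and 6.29 in samples 2-1 and 2-2, and at 6.84 and 6.85 in samples 1-1 and 1-2. Animal 2 was above animal 1 on the brightest probe set of Psmb1, and below animal 1 in Psmb2, without overlap. Another Psmb1 probe set, also above the bound on all 4 arrays, gave -0.59 ± 0.38 (SE), with animal 2 below without overlap. The remaining Psmb1 probe set, above the bound on 3 arrays, gave -0.03 ± 0.51 (SE) and overlapped. On their brightest probe sets Psmb3 and Psmb4 varied least among the 4 genes, with animal differences of 0.11 ± 0.12 and 0.03 ± 0.11 (SE). The other probe set of Psmb3 gave 0.94 ± 0.41, with animal 2 above without overlap. That of Psmb4 gave 0.35 ± 0.33 and overlapped (SE).

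The 3 genes that carry the constitutive cutting sites were all above background. Psmb5, which holds the chymotrypsin-like site, stood at 10.12 and 9.53 in samples 2-1 and 2-2, and at 9.79 and 9.60 in samples 1-1 and 1-2. Psmb6, with the caspase-like site, stood at 10.06 and 9.62 in samples 2-1 and 2-2, and at 10.07 and 9.84 in samples 1-1 and 1-2. For both, the samples of the animals overlapped. Psmb7, with the trypsin-like site, stood at 8.34 and 8.38 in samples 2-1 and 2-2, and at 7.55 and 8.26 in samples 1-1 and 1-2, with sample 1-1 low and no overlap between the animals. Over the 2 animals the means were 9.76 ± 0.09, 9.90 ± 0.08 and 8.13 ± 0.32 for Psmb5, Psmb6 and Psmb7 (SD, n = 2 animals).

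None of their 3 immunoproteasome counterparts passed the bound on all 4 arrays. Psmb8, which replaces Psmb5, was at 1.77 and 1.15 in samples 2-1 and 2-2, and at 1.16 and 1.90 in samples 1-1 and 1-2, and its other probe set stayed below the bound on every array too. Psmb9, which replaces Psmb6, was at 2.12 and 2.06 in samples 2-1 and 2-2, and at 2.15 and -1.10 in samples 1-1 and 1-2. Psmb8 and Psmb9 were thus below the bound on every array, where values carry no order. Psmb10, which replaces Psmb7, passed it in sample 1-1 alone, at 5.41 and 4.32 in samples 2-1 and 2-2, and at 6.35 and 5.59 in samples 1-1 and 1-2. A probe set below the bound does not show that its transcript is absent. In RefSeq order on the chromosome, Psmb9 lies between H2-DMb1 and Tap1, and Psmb8 between Tap1 and Tap2. The peptide transporter genes Tap1 and Tap2 were below the bound on every array as well.

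Other genes of interferon response and antigen processing gave a background to these values. Of 15 measured, 3 passed the bound on all 4 arrays and 11 on none. The 3 were the class I genes H2-K1 (mean 8.29 ± 0.12) and H2-D1 (8.25 ± 0.02) and their light chain B2m (6.75 ± 0.93; SD, n = 2 animals). H2-K1 and H2-D1 are closely related copies and their probe sets may share signal. Among those below the bound on every array were Nlrc5, the class I transactivator, and the interferon-induced GTPase Gbp2. The summed signal of the 15 genes was 752 and 1070 in samples 2-1 and 2-2, and 940 and 967 in samples 1-1 and 1-2. The summed signal of the 15 microglia and macrophage markers was 210 and 228 in samples 2-1 and 2-2, and 428 and 315 in samples 1-1 and 1-2, with 13 of them below the bound on every array, among them Aif1, Cx3cr1 and P2ry12. Csf1r passed it on all 4 arrays and Ctss in sample 1-1 alone, at 6.80. Any part of microglia and macrophages in the levels of Psmb10 was not tested.

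Both core genes known from single tissues were below the bound on every array. Psma8, the alpha subunit of the testis, was at 0.47 and 3.24 in samples 2-1 and 2-2, and at 4.06 and 1.30 in samples 1-1 and 1-2. Psmb11, the active-site subunit of thymus cortex, was at 1.05 and 0.57 in samples 2-1 and 2-2, and at 1.98 and 0.88 in samples 1-1 and 1-2.

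**Figure D1:**
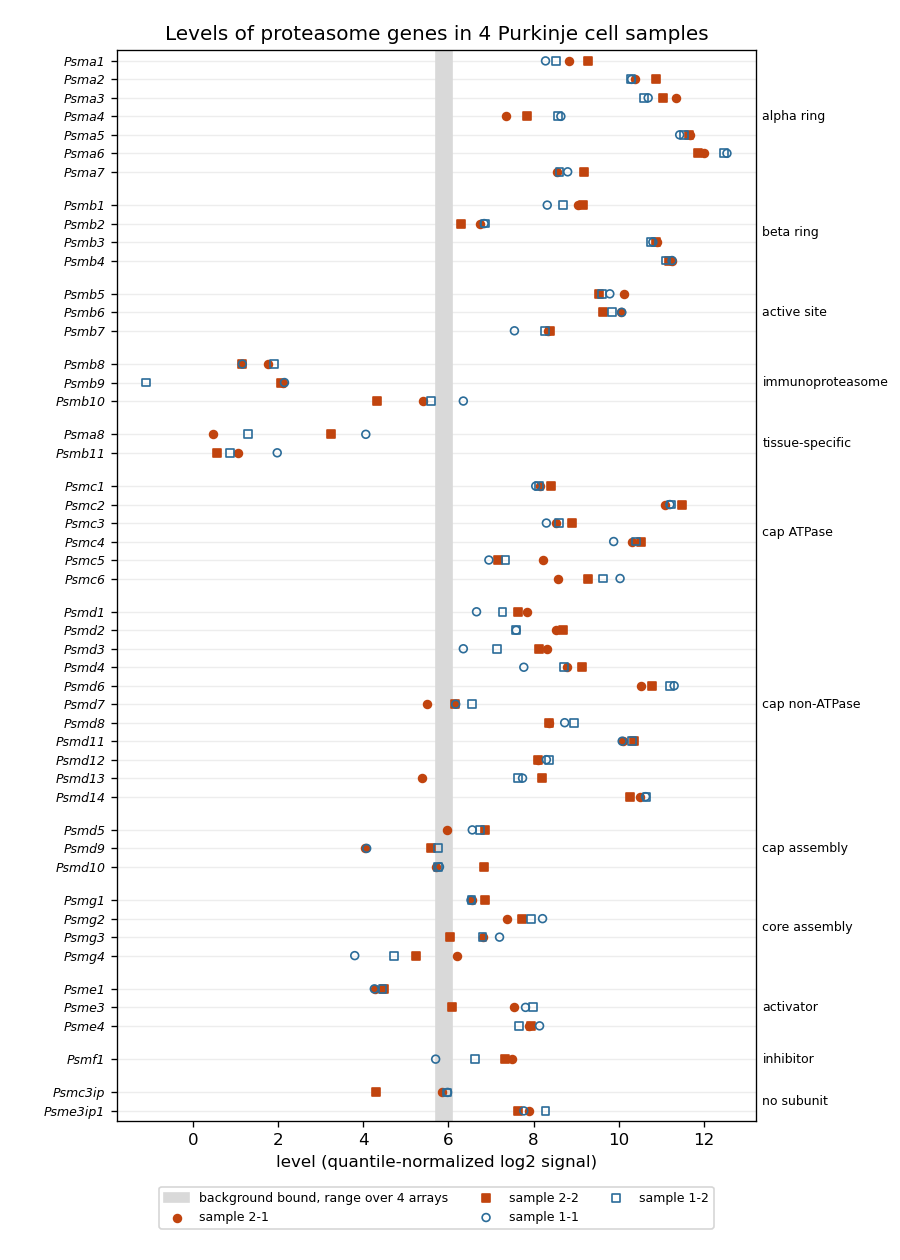
Level of each of the 49 genes in the 4 samples, as quantile-normalised log2 signal, with filled marks for samples 2-1 and 2-2 and open marks for samples 1-1 and 1-2. The grey band is the range of the background bound over the arrays (5.71 to 6.09). All constitutive core genes and all cap ATPases lie right of the band, while Psmb8, Psmb9, Psma8 and Psmb11 lie left of it.

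The 6 ATPase genes of the cap, whose products unfold the substrate, all passed the bound on all 4 arrays, with mean levels of 7.42 to 11.24. Psmc5 stood at 8.22 and 7.16 in samples 2-1 and 2-2, and at 6.95 and 7.34 in samples 1-1 and 1-2, with sample 2-1 high and the animals overlapping. Psmc6 stood at 8.58 and 9.28 in samples 2-1 and 2-2, and at 10.03 and 9.63 in samples 1-1 and 1-2, without overlap. Psmc2 varied little, at 11.08 and 11.48 in samples 2-1 and 2-2, and at 11.20 and 11.22 in samples 1-1 and 1-2.

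Of the 11 non-ATPase genes of the cap, which bind ubiquitin and hold the lid together, 9 passed the bound on all 4 arrays and Psmd7 and Psmd13 on 3. Psmd3, a subunit of the lid, stood at 8.31 and 8.12 in samples 2-1 and 2-2, and at 6.35 and 7.14 in samples 1-1 and 1-2. Psmd2, the base subunit that docks ubiquitin shuttles, stood at 8.53 and 8.69 in samples 2-1 and 2-2, and at 7.59 and 7.58 in samples 1-1 and 1-2. Psmd6, another lid subunit, stood at 10.53 and 10.78 in samples 2-1 and 2-2, and at 11.30 and 11.21 in samples 1-1 and 1-2. Animal 2 was above animal 1 in Psmd3 and Psmd2 and below it in Psmd6, in each case without overlap. A second Psmd6 probe set, also above the bound on all 4 arrays, overlapped and gave 0.03 ± 0.34 (SE). The large base subunit Psmd1 and the ubiquitin receptor Psmd4 also had both animal 2 samples above both animal 1 samples, with differences of 0.78 ± 0.37 and 0.72 ± 0.37 (SE). The deubiquitinase of the lid, Psmd14, stood at 10.51 ± 0.18 over the animals (SD, n = 2 animals), and its partner Psmd7 lay near the bound, at 5.49 and 6.15 in samples 2-1 and 2-2, and at 6.17 and 6.55 in samples 1-1 and 1-2.

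Psmd13, a structural subunit of the lid, was low in sample 2-1 alone. It stood at 5.38 and 8.19 in samples 2-1 and 2-2, and at 7.74 and 7.64 in samples 1-1 and 1-2. A second probe set of the gene also had sample 2-1 lowest, with 4.65 and 7.26 in samples 2-1 and 2-2, and 7.0 and 6.67 in samples 1-1 and 1-2. The difference between the animals was -0.91 ± 0.84 (SE), so that 1 sample of 1 animal carried it.

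Of the chaperones that build the cap and the core, 1 of 3 and 3 of 4 passed on all arrays. Psmd5 was the only cap chaperone above it on all 4 arrays, at 5.97 and 6.86 in samples 2-1 and 2-2, and at 6.56 and 6.74 in samples 1-1 and 1-2. Psmd10, known also as gankyrin, passed in sample 2-2 and, by less than the rounding shown, in sample 1-2, at 5.71 and 6.83 in samples 2-1 and 2-2, and at 5.79 and 5.75 in samples 1-1 and 1-2. Psmd9 passed by less than the rounding in sample 1-2 alone, at 4.05 and 5.60 in samples 2-1 and 2-2, and at 4.08 and 5.75 in samples 1-1 and 1-2. Among the core chaperones, Psmg1, Psmg2 and Psmg3 passed on all 4 arrays and Psmg4, the partner of Psmg3, in sample 2-1 alone. Psmg4 was at 6.20 and 5.25 in samples 2-1 and 2-2, and at 3.80 and 4.72 in samples 1-1 and 1-2. Psmg3 was at 6.81 and 6.03 in samples 2-1 and 2-2, and at 7.20 and 6.80 in samples 1-1 and 1-2. For Psmg3 the animals overlapped. For Psmg4 overlap was not judged, because all samples but 2-1 lay below the bound, where values carry no order.

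Of the 3 activators measured, 2 passed the bound on all 4 arrays. The interferon-inducible Psme1 was below the bound on every array, at 4.27 and 4.49 in samples 2-1 and 2-2, and at 4.26 and 4.45 in samples 1-1 and 1-2. The nuclear activator Psme3 passed on all 4, at 7.54 and 6.08 in samples 2-1 and 2-2, and at 7.81 and 7.98 in samples 1-1 and 1-2, with sample 2-2 low. Psme4, a large nuclear activator, also passed on all 4, at 7.89 and 7.94 in samples 2-1 and 2-2, and at 8.14 and 7.66 in samples 1-1 and 1-2. Of the 6 probe sets of Psme4, 5 were below the bound on every array, as were 2 of the 3 of Psme3. The inhibitor Psmf1, a protein that binds the core, was at 7.49 and 7.34 in samples 2-1 and 2-2, and at 5.70 and 6.63 in samples 1-1 and 1-2, and missed the bound in sample 1-1. Its difference of 1.25 ± 0.46 (SE) did not pass the test (limma adjusted p = 0.234). Of the genes that match by symbol alone, Psme3ip1 passed on all 4 arrays at 7.90 ± 0.18 (SD, n = 2 animals), and Psmc3ip in sample 1-2 alone, at 5.86 and 4.30 in samples 2-1 and 2-2, and at 5.98 and 5.96 in samples 1-1 and 1-2.

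The contrast of animal 2 with animal 1 was tested by limma on the 10698 probe sets that passed the bound on 2 or more arrays, 57 of them from the proteasome genes, with Benjamini-Hochberg adjustment over all. Of the 57, 0 were called higher in animal 2 and 1 lower at an adjusted p under 0.05, against 0.234% called higher and 0.168% called lower of all tested. On the signals as deposited, without normalisation between arrays, the split over all probe sets was 616 higher and 9 lower, against 25 higher and 18 lower after it. The call was Psma6, which fell by 0.58 ± 0.08 (SE) on the log2 scale in animal 2 (adjusted p = 0.0483, lower in 2 of 2 samples of animal 2). Of its other probe sets, 1 gave -0.22 ± 0.19 and 1 gave 0.89 ± 1.09, and neither was called. The called probe set is of the kind that can also bind related sequences. The call was lost under 6 of the 11 other settings tried, with adjusted p between 0.0556 and 0.336. In 5 of these 6 the difference lay between -0.69 and -0.56, and on the deposited signals it was -0.19.

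Among the rest, the smallest p-values with animal 2 higher belonged to Psma3 (0.55 ± 0.14, adjusted p = 0.134), Psmd3 (1.47 ± 0.38, adjusted p = 0.145) and Psmd2 (1.02 ± 0.28, adjusted p = 0.152). After Psma6, those with animal 2 lower belonged to Psmd6 (-0.60 ± 0.13, adjusted p = 0.107) and Psma4 (-1.01 ± 0.30, adjusted p = 0.176). None of these 5 passed the threshold in the limma fit. The other probe set of Psmd6 gave a difference of 0.03 ± 0.34 (SE). At an unadjusted p under 0.05 stood 12 of the 57 probe sets (21.1%), against 17.8% of all tested, so the share among proteasome probe sets was close to that of all.

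Markers of other cells were set beside these differences. Of the 6 granule cell markers above the bound on at least 2 arrays, all 6 had a lower mean in animal 2, with a median difference of -1.28, and Zic1 was called lower (-1.29 ± 0.18, limma adjusted p = 0.0483). The summed signal of the 11 measured markers was 1800 and 2030 in samples 2-1 and 2-2, and 4030 and 5060 in samples 1-1 and 1-2. Of 11 Bergmann glia and astrocyte markers so filtered, 8 had a lower and 3 a higher mean in animal 2, with a median of -0.18 and 0 calls, and the sum over all 13 was 11800 and 10600 in samples 2-1 and 2-2, and 14200 and 13900 in samples 1-1 and 1-2. The sum of the 11 vessel markers was 262 and 172 in samples 2-1 and 2-2, and 380 and 477 in samples 1-1 and 1-2, and that of the 11 oligodendrocyte markers 4310 and 3420 in samples 2-1 and 2-2, and 5030 and 4760 in samples 1-1 and 1-2. The summed signals of these 4 lists, granule cells included, thus lay lower in both samples of animal 2, and so did that of the microglia markers given above. A sum is weighted to its brightest markers, and single markers did not all go this way. Of 3 oligodendrocyte markers so filtered, Mbp (0.13) and Olig1 (0.52) were higher in animal 2. Cnp, with the largest signal of that list, was lower (-0.69), and the median was 0.13. Of 2 vessel markers so filtered, Rgs5 was higher (0.20) and Slco1a4 lower (-2.23). The only microglia marker so filtered, Csf1r, was lower (-1.46). Of the 16 Purkinje markers, 10 had a higher and 5 a lower mean in animal 2, with a median of 0.07. Calb1 stood at 0, which quantile normalisation sets for a probe set of equal rank on the arrays. The 1 call was Pcp2, higher in animal 2 (0.57 ± 0.07, limma adjusted p = 0.0391). The part of cell makeup in the difference of Psma6, or of any other gene here, was not tested.

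**Figure D2:**
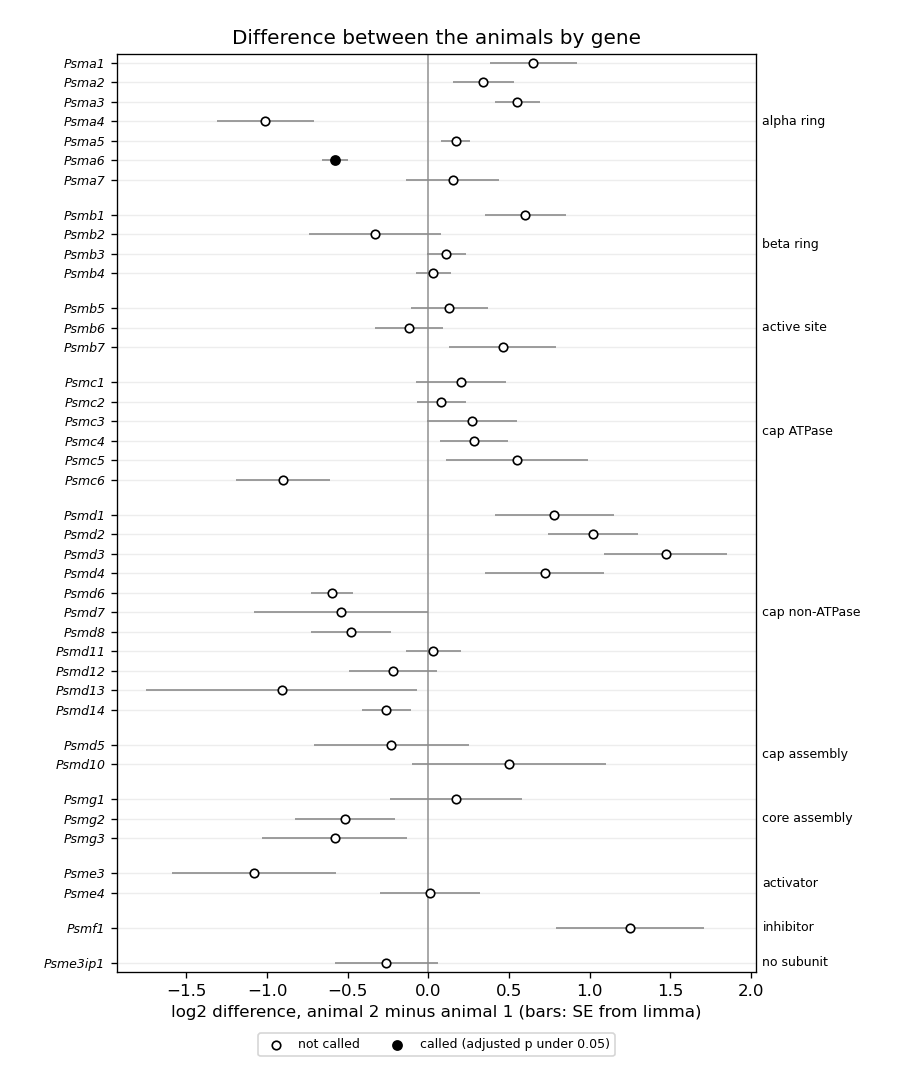
Difference between animal 2 and animal 1 for each of the 40 proteasome genes above the bound on at least 2 arrays, as log2 animal 2 minus animal 1 with the standard error from limma. Only Psma6, drawn filled, was called. The points lie on both sides of 0, from -1.08 (Psme3) to 1.47 (Psmd3).

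The genes did not share 1 direction. Of the 40 genes above the bound on at least 2 arrays, 24 had a positive and 16 a negative difference, with a median of 0.09, against -0.07 over all genes so filtered, and on the deposited signals both medians stood higher, at 0.56 and 0.46. The median of the proteasome genes turned negative, to -0.03, with the median over a gene's probe sets, and to -0.16 without the less specific kinds of probe set, against 0 and -0.03 over all genes. The median size of the difference without its sign was 0.47 for the proteasome genes and 0.39 for all genes. Among the 36 genes above the bound on all 4 arrays, both animal 2 samples lay above both animal 1 samples for 13 (36.1%), against 23% of all such genes, and below them for 10 (27.8%), against 27.4% of all such genes. The remaining 13 overlapped. Each ring and each cap class with more than 1 gene held both signs, as in the alpha ring with Psma1 at 0.65 and Psma4 at -1.01, and in the non-ATPase cap with Psmd3 at 1.47 and Psmd13 at -0.91. Sample 2-1 alone carried the difference of Psmd13, while Psmd8 of the same class was lower in animal 2 without overlap (-0.48).

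Pairs of samples were compared by the median absolute log2 difference over the 36 genes. It was 0.28 between samples 2-2 and 2-1 and 0.19 between samples 1-2 and 1-1. Across the animals it was 0.35 for samples 2-1 and 1-1, 0.47 for samples 2-2 and 1-1, 0.24 for samples 2-1 and 1-2 and 0.36 for samples 2-2 and 1-2. The mean over pairs was 0.36 between animals and 0.23 within an animal, so the animals were on average farther apart by 0.12. Over all 4988 genes above the bound the means were 0.40 between animals and 0.28 within an animal, a gap of 0.11. The pair of samples 2-1 and 1-2 was closer in the proteasome genes than the pair of animal 2, so the order of pairs did not follow the animals throughout. With 4 samples no test of this gap was made.

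**Figure D3:**
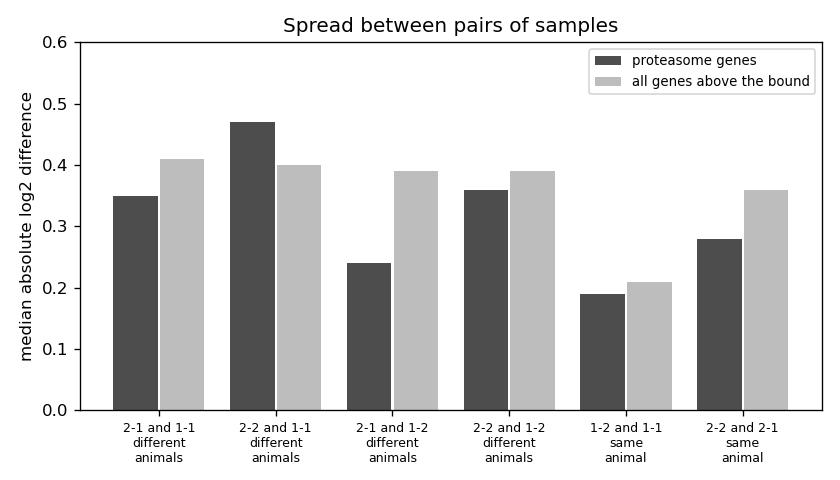
Median absolute log2 difference for each of the 6 pairs of samples, over the 36 proteasome genes (dark bars) and over all 4988 genes (light bars) above the bound on all 4 arrays. The 4 pairs across the animals come first, then the 2 pairs within an animal. The proteasome bars run from 0.19 (samples 1-2 and 1-1) to 0.47 (samples 2-2 and 1-1).

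Probe sets of the same gene did not always give the same picture. There were 22 genes with 1 probe set and 27 with several, and for 21 of the 27 some probe set failed the bound everywhere. Of 13 genes with several tested probe sets, the differences between the animals had the same sign in 6 and mixed signs in 7. Psmc4, a cap ATPase, gave 0.28 ± 0.21 on its brightest probe set and -1.11 ± 0.37 on the other. Psmd11, a lid subunit with 8 probe sets, gave 0.03 ± 0.17 on the brightest and -0.64 ± 0.25, 0.17 ± 0.36 and 0.83 ± 0.73 on its other tested ones (SE). Psmd4 and Psmd13 kept their sign on both of their tested probe sets. Of the 36 genes above the bound on all 4 arrays, 17 took their level from a probe set of the kinds that can bind more than 1 transcript.

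**Figure D4:**
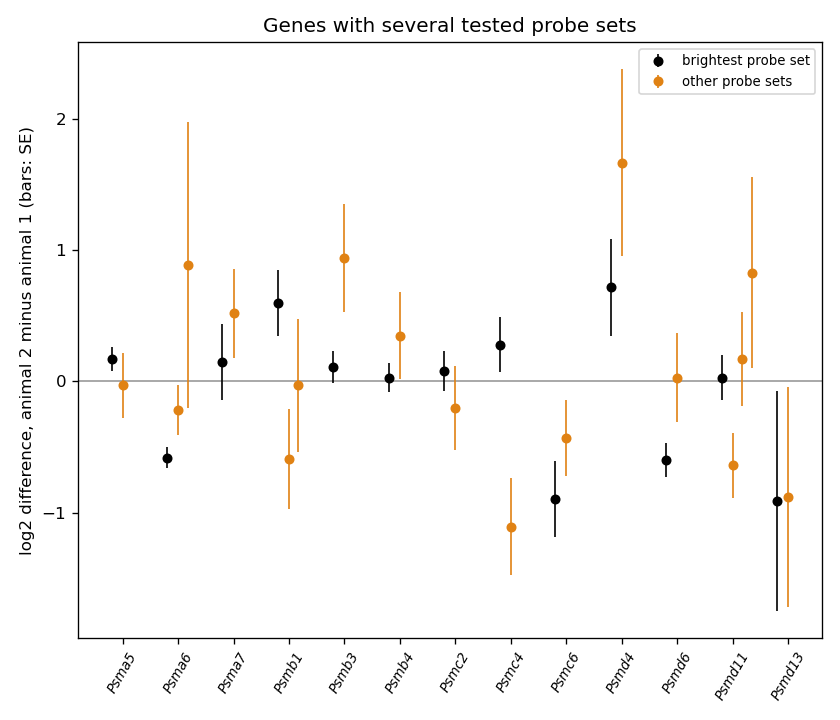
Difference between the animals (log2 animal 2 minus animal 1, bars are standard errors) for every tested probe set of the 13 genes with several. Black points are the brightest probe set of the gene and orange points the others. For Psmc4 they lie on opposite sides of 0, at 0.28 and -1.11, and for Psmd13 together, at -0.91 and -0.88.

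Proteins that work with the proteasome but do not match the symbol rule were measured beside it. Of 11 such genes, 9 passed the bound on all 4 arrays, with 4 positive and 7 negative differences, 0 calls in either direction and a median of -0.15. They included Txnl1, a thioredoxin-like protein bound to the cap, at 11.65 ± 0.31, Zfand5, a zinc-finger protein that activates the proteasome, at 11.31 ± 0.19 and the small cap subunit Sem1 at 10.78 ± 0.36. The deubiquitinase Uchl5 at 7.28 ± 0.79 and the scaffold Ecpas at 6.73 ± 0.47 were each below the bound on 1 array (SD, n = 2 animals). Of the 6 ubiquitin and E1 genes listed, Uba6 alone had a probe set of a single symbol and passed on 3 arrays at 6.03 ± 0.03, at 5.26 and 6.85 in samples 2-1 and 2-2, and at 6.15 and 5.88 in samples 1-1 and 1-2.

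Of 9 genes for shuttles and extraction factors that bring ubiquitinated proteins to the proteasome, 6 passed on all 4 arrays, with 0 calls. They included the shuttle Ubqln2 at 10.46 ± 0.09, the extraction ATPase Vcp at 8.37 ± 0.69 and its adaptor Faf1 at 8.20 ± 0.26, while the partners of Vcp, Ufd1 and Nploc4, lay near the bound at 6.16 ± 0.93 and 5.80 ± 0.02 (SD, n = 2 animals). Vcp had both animal 2 samples above both animal 1 samples, at 8.80 and 8.90 in samples 2-1 and 2-2, and at 8.11 and 7.66 in samples 1-1 and 1-2, and was not called (limma adjusted p = 0.169). Of 10 regulators of proteasome gene transcription, 3 passed on all 4 arrays and 5 on none. The 3 were Nfe2l1, the factor that raises proteasome genes when the proteasome is impaired, at 7.18 ± 0.65, Ngly1, the enzyme that removes its sugars, at 7.64 ± 0.35, and Keap1 at 6.83 ± 0.22. The small Maf partner Maff and the relative Nfe2l3 were below the bound on every array. Nfe2l1 stood at 7.56 and 7.71 in samples 2-1 and 2-2, and at 6.89 and 6.55 in samples 1-1 and 1-2, without overlap and without a call (limma adjusted p = 0.247).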

How the data were processed

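Biotin-labelled RNA, amplified in 2 cycles from about 1 ng of total RNA per the labels' protocols, was hybridised to Affymetrix arrays. Each array's deposited column holds 1 linear intensity for every probe set, and GCOS is the software named in the submitters' processing notes. Its version, algorithm and scaling target, and the way cells were recognised, were not given in the sources used here. Scanner files, dates and detection calls were not used here, so scan batches were not tested.

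Signals were floored at 0.1, log2-transformed and quantile-normalised. Genes were named from GEO's platform annotation, and probe sets with several symbols (932) or none (9160) name no gene. The 49 symbols matched RefSeq gene IDs unchanged. The background bound, the filter and the test (limma 3.58.1 in R 4.3.3, with a trended prior in eBayes, 2 residual degrees of freedom, checked on simulated data) are described with the results. The number of arrays limits the precision.

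The proteasome genes, the accompanying lists and the tests were chosen with earlier results of these data known. Values in every sample were given for active-site, tissue-specific, activator and inhibitor genes, for genes not above the bound on all 4 arrays, for the highest and lowest difference in each other class, and for the probe sets with the smallest p-values. Psmb3, Psmb4, Psmc2, Psmd1, Psmd4, Psmd14, Tap1, Tap2 and the examples of disagreeing probe sets were added, and Vcp and Nfe2l1 given per sample, after their values were seen. From accompanying lists other than the cell type markers, the 3 highest and 2 lowest means were named. Cell type markers did not follow this rule and were named as called genes, as genes that passed the bound, or as examples.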

Additional observations from a re-analysis of the deposited data

Results flagged for a closer look

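A gene was noted when 1 of its 4 samples lay far from the others, measured as the gap to the nearest sample over the whole range, with a critical value of 0.829 at 4 samples. Chance passes this in about 5% of genes. Of the 49 genes 6 passed (12.2%), against 7.01% of all 18193 named genes on these arrays. In sample 2-2 the highest value stood apart for Psma2 (0.829, above the critical value before rounding; 10.38 and 10.88 in samples 2-1 and 2-2, and 10.30 and 10.28 in samples 1-1 and 1-2), Psmd10 (0.925) and Psmg1 (0.908; 6.56 and 6.85 in samples 2-1 and 2-2, and 6.53 and 6.54 in samples 1-1 and 1-2), and the lowest for Psmc3ip (0.932). In sample 1-1 the lowest value stood apart for Psmb7 (0.853). In sample 1-2 the lowest stood apart for Psmb9 (0.974), a gene below the bound on every array.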

How the results depend on the processing

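The count of proteasome genes above the bound was 36 (27.4% of all genes). It ran from 27 (median over probe sets, 18% of all genes) to 40 (90th percentile, 40.2%, or at least 2 arrays, 37.2%) under the 7 settings that keep all samples, and from 36 to 38 (27.8% to 29.5%) with 1 sample left out. The immunoproteasome count was 0 in all 11 settings tried. The number of proteasome probe sets called was 1, and became 3 on the signals as deposited, and 0 with each array scaled to 1 trimmed mean, without the filter on dim probe sets and without the mean-variance trend. It ran from 0 to 7 with 1 sample left out, where the lone sample of an animal is assumed to vary like the others. Over all probe sets, 43 calls (25 higher, 18 lower) became 625 (616 higher, 9 lower) on the deposited signals, where the median of all genes moves to 0.46 by the arrays' unequal scale, 180 with all 4 arrays required, 5 without the filter, 0 without the trend, and 820, 1020, 7 and 2 without samples 2-1, 2-2, 1-1 and 1-2. Psma6 was not called on the deposited signals (-0.19, limma adjusted p = 0.303), after scaling (-0.69, 0.0556), without the filter (-0.58, 0.225), without the trend (-0.58, 0.336), without sample 1-1 (-0.56, 0.329) or without sample 1-2 (-0.62, 0.319). The median difference between the animals, 0.09, was 0.56 on the deposited signals, -0.03 over medians of probe sets, -0.16 without the probe sets of less specific kinds, and 0.02 to 0.15 with 1 sample left out. The gap between and within animals, 0.12, was 0.29 on the deposited signals and ran from 0.03 (without sample 1-1) to 0.23 (without sample 2-1) with 1 sample left out. Apart from the scale of the deposited signals, the cause was not tested. A replicate block by the sample number within an animal, added after seeing the data, gave 1 called proteasome probe set, Psma6 (adjusted p = 0.00577), and 254 calls in all, with 1 residual degree of freedom. Same-numbered samples did not deviate together (correlation 0), and the labels do not pair them. Signal near the bound limits the genes that passed on 1 to 3 arrays.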
